A study of Mus musculus with 6 samples.

Results

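C-type lectin and killer-lectin receptors were followed in mouse bone marrow derived macrophages after overnight exposure to piceatannol, a plant stilbene known as an inhibitor of the tyrosine kinase Syk. Members were the table rows whose gene symbol begins with Clec and a digit, with Cd209 or with Klra to Klrk, together with Mgl2, Mrc1, Mrc2 and Cd69, and this gave 74 of 52459 symbols. The cells came from bone marrow of C57BL/6 mice cultured with GM-CSF, the growth factor granulocyte-macrophage colony-stimulating factor. The control group of 3 libraries received vehicle on day 7 of culture, and the piceatannol group of 3 libraries received the compound on the same day. No genetic change separates the groups, and dose, vehicle and age of the animals are not stated in the labels. Nor is it stated that replicates are separate mice or dishes, so each p-value rests on a spread between libraries that may be technical.

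C-type lectin receptors are membrane proteins with a lectin fold that binds sugars, lipids or proteins, and myeloid cells use them to recognise fungi, bacteria, dead cells and altered self. Activating members signal through Syk and the adaptor CARD9, either by a tyrosine motif of their own or through the partner chains FcRγ (Fcer1g) and DAP12 (Tyrobp), while members with an inhibitory tail recruit phosphatases such as SHP-1 (Ptpn6). The killer-lectin receptors share the fold and are best known from natural killer (NK) cells, where they read MHC class I and related ligands. Several members are textbook markers of macrophages matured with IL-4 or GM-CSF and of dendritic cells.

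Of the 74 members, 56 had at least 1 count and 18 were at 0 in every library, 11 of these among the 14 Klra (Ly49) symbols. A low-count filter left 43 members for testing, of 15380 genes in all, and 9 of the 43 had fewer than 10 counts in every library of 1 group. Such genes passed the filter through the group in which they were high, so counts over the tested members are descriptions. GENCODE M21 types 67 members as protein coding, 4 as transcribed unprocessed pseudogenes and 2 as unprocessed pseudogenes. It types 1, Clec7a, as a polymorphic pseudogene. The Klra symbols at 0 include the pseudogenes Klra11-ps, Klra13-ps and Klra14-ps. By position, 56 members lie on chromosome 6 and 10 on chromosome 8. Total counts ranged from 33276569 to 58697084 per library. Mitochondrial genes took 0.777 to 0.866% of counts in control and 1.87 to 2.65% with piceatannol. Of 8 macrophage markers 6 were lower, and Cd68 (log2 1.11 ± 0.07) and Cd14 (log2 1.93 ± 0.07) were higher. Their sum, most of it Lyz2, was at 18600 to 22600 CPM in control and 13200 to 14700 CPM with piceatannol, where CPM is the count scaled by library size in the usual per-million unit. In bulk RNA, fewer cells of a type and less RNA per cell cannot be told apart.

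Promoters are shown here for 2 members with the deepest falls, for Clec4d and Clec4e, which rose from over 90 CPM in each control library, and for Clec7a, which did not pass the test. Each is the 250 bases before the RefSeq start on GRCm38.p6, written 5′ to 3′ on the gene's own strand. Capitals mark matches to any of 7 motifs searched on both strands: TTCNNNGAA and TTCNNNNGAA (STAT types), TGANTCA (AP-1), GAGGAA (PU.1-type ETS), GAAANNGAAA (interferon type), TGACNNNGC (antioxidant response) and CACGTG (E-box). Cd209a fell furthest, and its promoter lies at chr8:3748985-3749234 on the minus strand.
Cd209a: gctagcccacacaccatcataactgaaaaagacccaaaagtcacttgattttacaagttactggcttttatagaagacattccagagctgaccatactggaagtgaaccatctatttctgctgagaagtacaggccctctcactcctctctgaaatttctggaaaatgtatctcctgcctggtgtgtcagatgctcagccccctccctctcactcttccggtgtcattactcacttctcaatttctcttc
Klrb1f fell nearly as far, and its promoter lies at chr6:129045651-129045900 on the plus strand.
Klrb1f: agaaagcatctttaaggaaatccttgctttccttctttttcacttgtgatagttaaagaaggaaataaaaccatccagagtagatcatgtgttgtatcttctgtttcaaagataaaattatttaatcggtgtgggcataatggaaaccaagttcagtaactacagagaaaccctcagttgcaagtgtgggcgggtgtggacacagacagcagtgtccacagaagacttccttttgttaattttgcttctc
Clec7a has its promoter at chr6:129472780-129473029 on the minus strand.
Clec7a: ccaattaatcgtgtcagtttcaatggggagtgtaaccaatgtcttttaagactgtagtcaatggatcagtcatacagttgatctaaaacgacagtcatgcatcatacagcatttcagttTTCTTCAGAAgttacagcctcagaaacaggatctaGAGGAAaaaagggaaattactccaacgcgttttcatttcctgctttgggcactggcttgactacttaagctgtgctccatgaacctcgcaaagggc
Clec4d rose, and its promoter lies at chr6:123261857-123262106 on the plus strand.
Clec4d: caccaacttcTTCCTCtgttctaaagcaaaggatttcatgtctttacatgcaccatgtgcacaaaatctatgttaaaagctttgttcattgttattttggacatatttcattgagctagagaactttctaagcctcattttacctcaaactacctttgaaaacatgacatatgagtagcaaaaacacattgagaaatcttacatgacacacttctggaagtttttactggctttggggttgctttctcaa
Clec4e, the neighbour of Clec4d, also rose, and its promoter lies at chr6:123289872-123290121 on the minus strand.
Clec4e: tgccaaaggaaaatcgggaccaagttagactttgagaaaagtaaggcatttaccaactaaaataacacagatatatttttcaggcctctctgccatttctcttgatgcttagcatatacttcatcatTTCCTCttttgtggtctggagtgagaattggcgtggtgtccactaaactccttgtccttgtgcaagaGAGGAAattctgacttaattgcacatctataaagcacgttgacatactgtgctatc

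Neither the Cd209a nor the Klrb1f window held any of the 7 motifs. The Clec7a window held a STAT6-type match beginning 131 bases and an ETS-type match beginning 96 bases before the start. The Clec4d window held an ETS-type match at 240 bases, and the Clec4e window held such matches at 123 and 56 bases. A RefSeq promoter was matched by symbol for 57 members, with 65 entries because some members have several starts. GAGGAA was present in 53.8% of these 65 entries and in 23.3% of all 32851 promoters of the same length. Its share was 65.2% among 23 entries of members that fell and it was in 6 of the 10 entries of members that rose. The STAT6-type letters were present in 13.8% of member entries and 5.85% of all, and in 3 of the 23 entries of members that fell. Member entries are not independent of each other. Many Klra entries hold GAGGAA within nearly the same stretch, and the Klrc2 and Klrc3 entries share their STAT6-type match. All 6 motifs other than GAGGAA were in 0 of the 10 entries of members that rose. The remaining 5 motifs were in 3.08 to 10.8% of member entries and in 2.98 to 10.2% of all promoters. Matches of different motifs can overlap, and the median GC content was 41.6% in member entries and 52.4% in all.

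With piceatannol, most tested lectin receptors fell, and the falls took in the DC-SIGN family, the galactose-type receptors, the mannose receptor Mrc1 and the NKR-P1 killer receptors. Mincle (Clec4e) and its partner Clec4d rose, while Dectin-1 (Clec7a) did not pass. Among the 43 tested members, 28 were lower, 10 were higher and 5 did not pass at an adjusted p of 0.05 by edgeR's quasi-likelihood test, Benjamini-Hochberg adjusted over all 15380 genes. Over all tested genes 77% were called, 38.3% lower and 38.8% higher, so a call in itself was common, while 65.1% of tested members were lower and 23.3% higher. A fitted fall of at least 2-fold was called in 23 members (53.5%) against 16.6% of all genes, and a rise of at least 2-fold in 8 members (18.6%) against 17.5%. Falls of at least 8-fold were called in 8 members (18.6%) against 2.57% of all genes. Of these 8, Cd209d, Cd209e, Clec4g, Clec4a4 and Klri2 had fewer than 10 counts in every piceatannol library and passed the filter through control. At a mean of at least 10 CPM over all libraries, falls of at least 8-fold were in 3 of 22 members (13.6%) and 1.6% of 9087 genes. The 3 were Cd209a, Klrb1b and Klrb1f, each under 10 CPM in every piceatannol library. They reached that mean through control, so counts at this level are descriptions too. At the same level, falls of at least 2-fold were in 11 members (50%) and 13.9% of genes. The 2 groups of libraries did not overlap for 36 of 43 members (83.7%), against 79% of all genes. At a mean of at least 10 CPM the order was reversed, with 17 of 22 members (77.3%) against 85.1% of genes. The median log2 fold change was -1.58 for members and 0.01 for all genes, with members running from -5.51 to 3.70. Among the 22 members with a mean of at least 10 CPM over all 6 libraries, 16 were lower (72.7%) and 2 higher (9.09%) with a median of -1.24, while the 9087 genes at that level were 44.1% lower and 39.6% higher with a median of -0.05.

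**Figure D1:**
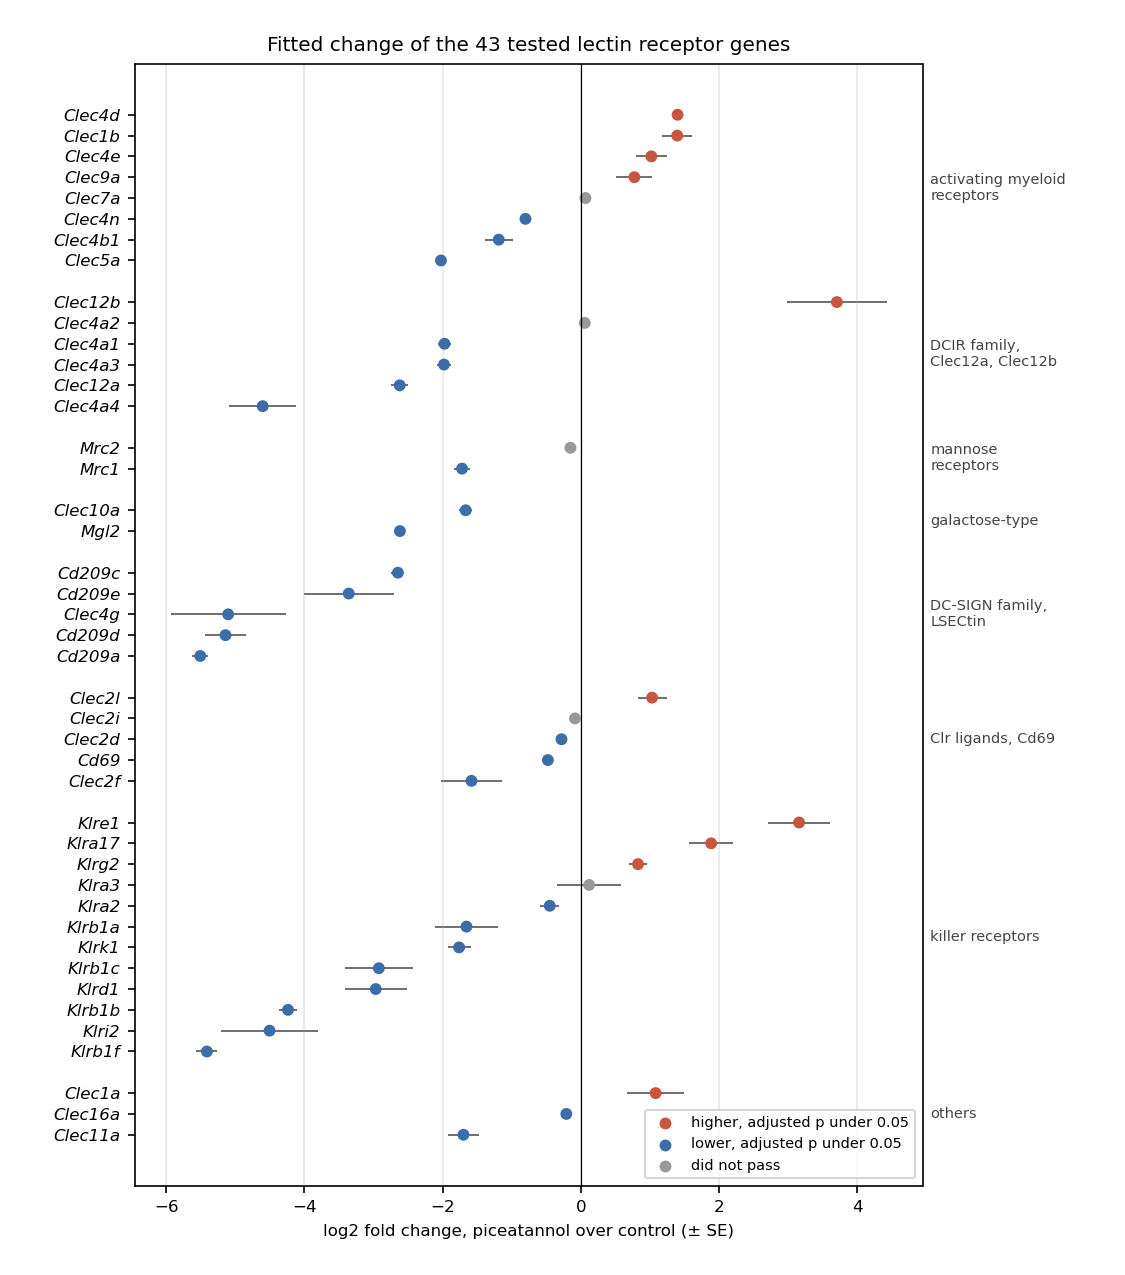
Fitted log2 fold change (piceatannol over control, with its standard error as the bar) of the 43 tested lectin receptor genes, grouped by role. The DC-SIGN family lies wholly below 0, whereas the activating myeloid receptors lie on both sides, from Clec5a at -2.03 to Clec4d at 1.40.

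The plot of fitted changes by role shows that 5 of the 8 roles held both higher and lower members. By role, the tested members lower and higher were 5 and 0 of 5 in the DC-SIGN family with LSECtin, 2 and 0 of 2 galactose-type receptors, and 1 and 0 of 2 in the mannose receptor family. They were 4 and 1 of 6 in the DCIR family with Clec12a and Clec12b, 8 and 3 of 12 killer receptors, and 3 and 1 of 5 among Clr genes with Cd69. Of 8 tested activating myeloid receptors 4 were higher and 3 lower, and at a threshold of 0.01 Clec9a and Clec4e lost the call, which left 2 higher and 3 lower. The remaining role, 3 tested genes taken in by their Clec symbol, had 2 lower and 1 higher. Over all tested genes 38.3% were lower and 38.8% higher, and each role held few tested members.

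Per length, the lectin receptor transcript pool was led by a few genes. The authors' FPKM values, a level per gene length and library size, were used here to compare levels of members and roles. Summed over members, they came to 2281, 2405 and 2269 in control and to 1541, 1541 and 1421 with piceatannol, 1.54-fold lower. Clec4n (Dectin-2) alone held 52.4, 53.2 and 53.3% of that sum in control and 45.3, 47.6 and 45.6% with piceatannol, and it ranked first among members in both groups. Clec4d went from 7.47, 6.29 and 7.54% of the sum to 29.5, 26.5 and 29.2%, while Mgl2 went from 18.2, 19.97 and 18.4% to 4.29, 4.91 and 4.85%. The activating myeloid role went from 68.6% ± 0.577 (SD, n = 3) to 87.1% ± 0.646 (SD, n = 3) of the sum. In absolute FPKM that role itself was lower, at 1591 ± 38.7 in control and 1308 ± 64.4 with piceatannol.

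**Figure D2:**
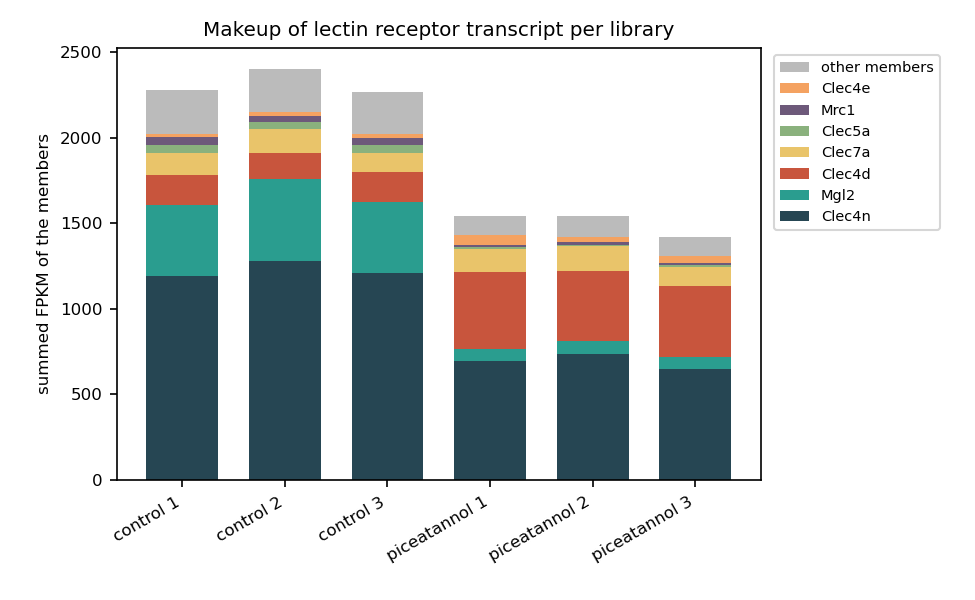
FPKM summed over the lectin receptor genes in each of the 6 libraries. The stacked parts are Clec4n, Mgl2, Clec4d, Clec7a, Clec5a, Mrc1, Clec4e and the other members together. The piceatannol bars are shorter, with 1421 to 1541 FPKM against 2269 to 2405 in control, and the Clec4d part is larger in all 3 of them.

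The plot of pool makeup draws single genes rather than roles, and by sum the other roles were lower by different amounts. The DC-SIGN family with LSECtin went from 61.5 ± 2.95 to 4.21 ± 0.0721 FPKM (mean ± SD, n = 3 in each group), 14.6-fold lower. Galactose-type receptors went from 457.6 ± 38.1 to 76.3 ± 5.71 FPKM, killer receptors from 37.1 ± 2.05 to 11.3 ± 0.191 FPKM and the mannose receptor family from 45.4 ± 4.26 to 15.9 ± 1.90 FPKM. The DCIR family with Clec12a and Clec12b went from 62.9 ± 3.52 to 30.1 ± 0.780 FPKM. Clr genes with Cd69 stood at 55.3 ± 3.11 and 49.5 ± 4.12 FPKM, where the libraries of the 2 groups overlapped. In control, the first 4 places by FPKM were Clec4n, Mgl2, Clec4d and Clec7a, and each stood clear of the next in every library. Clec5a, Mrc1, Cd209a and Clec2d followed with overlapping libraries. With piceatannol the first 4 were Clec4n, Clec4d, Clec7a and Mgl2, again without overlap. Among all genes, Clec4n ranked 22nd by FPKM in each control library, and 49th, 42nd and 53rd with piceatannol. At a mean of at least 1 FPKM there were 28 members in control, 22 with piceatannol and 21 in both.

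Among the activating myeloid receptors, the Dectin-2 cluster split, with Clec4n lower and its neighbours Clec4d and Clec4e higher. Clec4n, which binds fungal mannans and signals through FcRγ, was at 1698, 1810 and 1720 CPM in the control libraries and 1008, 1054 and 936 CPM in the piceatannol libraries. Every piceatannol library lay below every control library, and the change was 1.74-fold lower (log2 -0.80 ± 0.07, adjusted p = 1.30e-09 by edgeR's quasi-likelihood test, Benjamini-Hochberg adjusted). Clec4d (MCL), which pairs with Mincle at the cell surface, was at 273, 241 and 274 CPM in the control libraries and 739, 662 and 676 CPM in the piceatannol libraries. All 3 piceatannol libraries were above all controls, 2.64-fold higher (log2 1.40 ± 0.07, adjusted p = 1.91e-13 by the same edgeR test). Clec4e (Mincle), a receptor for mycobacterial and other glycolipids, was at 108, 91.8 and 121 CPM in the control libraries and 269, 163 and 218 CPM in the piceatannol libraries. The treated libraries were spread, with replicate 1 highest and replicate 2 lowest, yet none overlapped control (2.03-fold higher, log2 1.02 ± 0.23, adjusted p = 0.0113 by the same edgeR test).

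Dectin-1 (Clec7a), the β-glucan receptor that carries its own tyrosine motif, was at 339, 365 and 306 CPM in the control libraries and 359, 390 and 307 CPM in the piceatannol libraries. The groups overlapped and the change did not pass (log2 0.07 ± 0.09, adjusted p = 0.495 by edgeR's quasi-likelihood test), and its sign turned when control replicate 3 was left out (-0.0013) or piceatannol replicate 2 (-0.02). Clec5a (MDL-1), a DAP12-coupled receptor of myeloid cells, was at 186, 163 and 169 CPM in the control libraries and 46.2, 42.1 and 39.0 CPM in the piceatannol libraries. All piceatannol libraries were below all controls, 4.07-fold lower (log2 -2.03 ± 0.07, adjusted p = 1.53e-15 by edgeR's quasi-likelihood test). Clec4b1 (DCAR), an FcRγ-coupled relative of Dectin-2, was at 3.12, 3.40 and 2.71 CPM in control against 1.16, 1.24 and 1.60 CPM with piceatannol. It also fell without overlap (log2 -1.19 ± 0.20).

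Clec1b (CLEC-2), the podoplanin receptor best known from platelets, was at 1.02, 0.980 and 1.29 CPM in the control libraries and 3.40, 2.24 and 3.01 CPM in the piceatannol libraries. It was low in both groups and higher in all 3 piceatannol libraries (log2 1.39 ± 0.22). Clec9a (DNGR-1), which binds actin exposed on dead cells, was at 1.19, 1.19 and 1.08 CPM in control against 2.35, 1.12 and 2.35 CPM with piceatannol. Piceatannol replicate 2 lay within the control range, and the call (log2 0.77 ± 0.26, adjusted p = 0.0107 by edgeR's quasi-likelihood test) was lost without piceatannol replicate 1 (adjusted p = 0.0604, same edgeR test) or replicate 3 (adjusted p = 0.0732, same edgeR test). It was also lost by limma on log2(FPKM + 0.1), at an adjusted p of 0.0563. Exons of Clec1b and Clec9a overlap on 1 strand, so reads in the shared stretch cannot be assigned to either gene. Clec4b2, the last member of the role, had 29 counts in control and 2 with piceatannol and was not tested.

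Ratios within a library set the receptors of the cluster against each other without any scaling between libraries. Clec4d over Clec4n in FPKM was 0.143, 0.118 and 0.142 in control and 0.651, 0.557 and 0.642 with piceatannol. Clec4e over Clec4n was 0.0182, 0.0145 and 0.0201 in control and 0.0763, 0.0443 and 0.0666 with piceatannol. Clec7a over Clec4n went from 0.107, 0.108 and 0.0957 to 0.192, 0.199 and 0.176. In each of these the treated libraries stood above the controls. These were 3 of 6 pairs that were chosen after the values were seen. For each of the 6 the exact two-sided permutation test gave p = 0.1, the smallest that 3 against 3 libraries allow, and 0.1 after Benjamini-Hochberg adjustment.

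**Figure D3:**
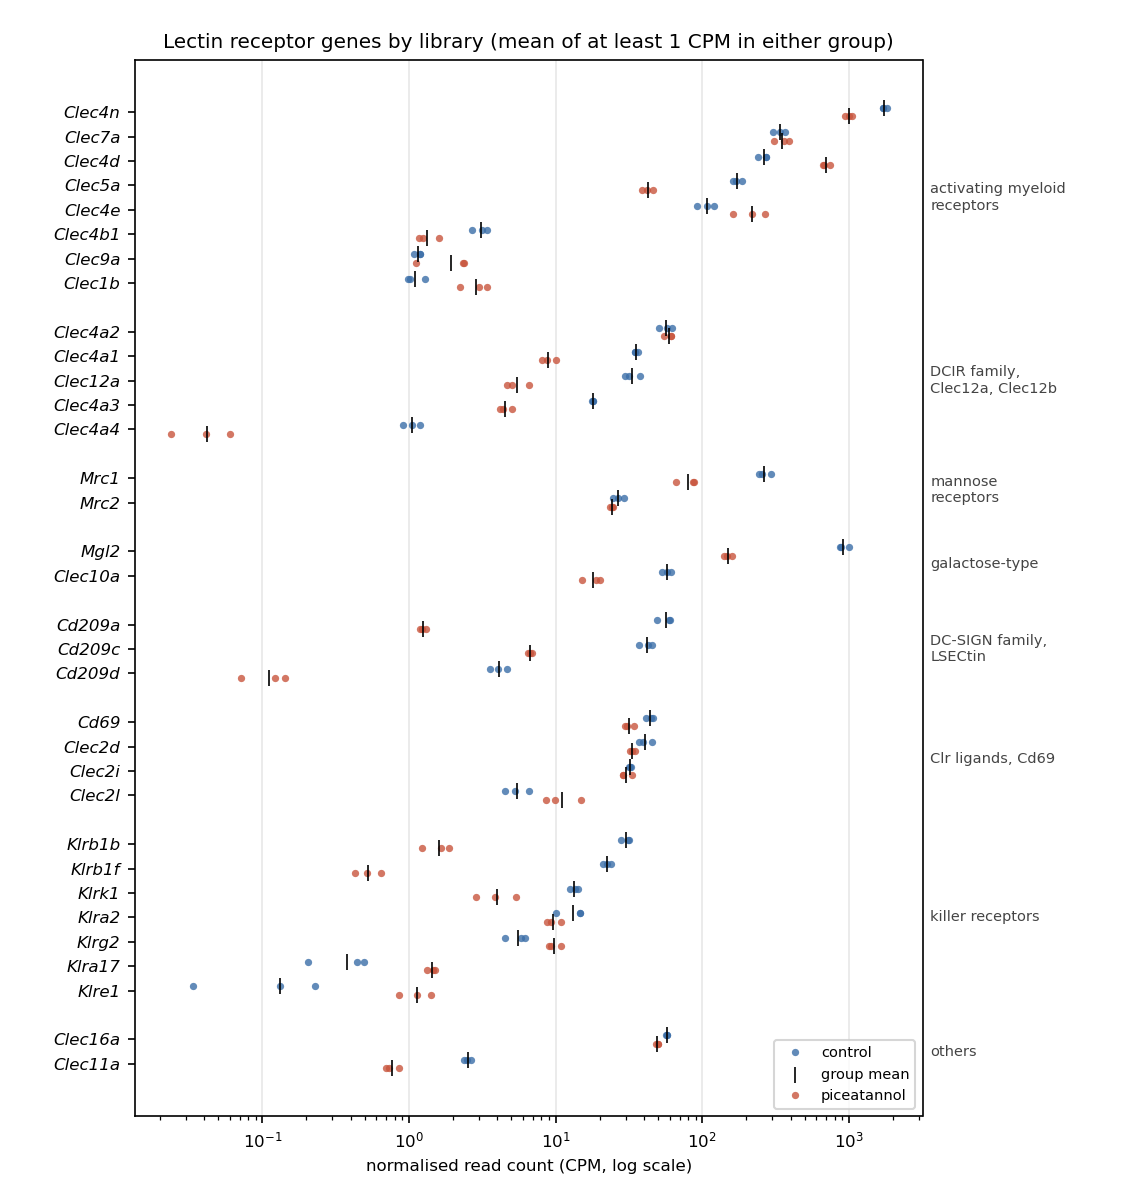
CPM (log axis) in each of the 6 libraries for the lectin receptor genes with a mean of at least 1 CPM in either group, arranged by role. Each point is 1 library, and the 2 colours separate furthest for Cd209a, Cd209d and Klrb1f, while the points of Clec7a, Clec4a2 and Mrc2 overlap.

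In the DCIR family with Clec12a and Clec12b, 4 members fell, 1 rose and Clec4a2 did not pass. Clec4a2 (DCIR1), whose tail holds an inhibitory tyrosine motif, was at 57.6, 62.2 and 51.0 CPM in the control libraries and 61.5, 60.7 and 55.2 CPM in the piceatannol libraries. Its groups overlapped and it did not pass (log2 0.06 ± 0.07, adjusted p = 0.504 by edgeR's quasi-likelihood test), with a sign that turned without control replicate 3 (-0.02). Clec4a1, from the same cluster, was at 34.5, 36.3 and 34.8 CPM in control against 8.05, 8.69 and 10.1 CPM with piceatannol. Clec4a3, also from it, was at 18.1, 18.0 and 17.7 CPM in control against 5.01, 4.18 and 4.40 CPM with piceatannol. Both were lower in every treated library, by 3.93-fold (log2 -1.97 ± 0.09) and 3.95-fold (log2 -1.98 ± 0.11). The ratio of Clec4a2 to Clec4a1 in FPKM, another of the 6 pairs, was 0.889, 0.912 and 0.779 in control and 4.06, 3.73 and 2.92 with piceatannol.

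Clec4a4 (DCIR2), known from a subset of dendritic cells and also carrying an inhibitory motif, was at 0.908, 1.19 and 1.05 CPM in control against 0.0238, 0.0605 and 0.0410 CPM with piceatannol. It had 1 or 2 counts in each treated library and was 24.3-fold lower (log2 -4.60 ± 0.48). Clec12a (MICL), an inhibitory receptor for uric acid crystals, was at 31.4, 37.7 and 29.9 CPM in the control libraries and 5.01, 6.60 and 4.63 CPM in the piceatannol libraries. It fell 6.16-fold with no overlap (log2 -2.62 ± 0.13, adjusted p = 8.83e-12 by edgeR's quasi-likelihood test). Clec12b, its inhibitory neighbour on chromosome 6, had 0, 1 and 2 counts in control and 13, 9 and 13 counts with piceatannol. The ratio of counts per depth was 14.7 with a 95% interval for counting error of 4.62 to 74.5 (fitted log2 3.70 ± 0.72, and 4.43 without control replicate 3).

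In the mannose receptor family, Mrc1 fell and Mrc2 did not pass. Mrc1 (CD206), the macrophage mannose receptor and a widely used marker of alternative activation, was at 295, 242 and 254 CPM in the control libraries and 86.2, 88.1 and 66.0 CPM in the piceatannol libraries. Every treated library lay far below control, 3.29-fold lower (log2 -1.72 ± 0.12, adjusted p = 9.95e-07 by edgeR's quasi-likelihood test, Benjamini-Hochberg adjusted). Mrc2 (Endo180), its collagen-binding relative, was at 26.6, 29.5 and 24.5 CPM in the control libraries and 24.7, 23.3 and 24.3 CPM in the piceatannol libraries. These overlapped and the change did not pass (log2 -0.15 ± 0.08, adjusted p = 0.0941 by edgeR's quasi-likelihood test), although it passed without control replicate 3 (adjusted p = 0.0363, same edgeR test) and when libraries were scaled by their totals (adjusted p = 0.0475, same edgeR test).

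Both galactose-type receptors with counts enough to test fell. Mgl2 (CD301b), which binds terminal galactose and N-acetylgalactosamine and marks GM-CSF and IL-4 responsive myeloid cells, was at 871, 1002 and 877 CPM in the control libraries and 141, 160 and 147 CPM in the piceatannol libraries. It was 6.14-fold lower with wide separation (log2 -2.62 ± 0.07, adjusted p = 4.01e-17 by edgeR's quasi-likelihood test, Benjamini-Hochberg adjusted). Clec10a (CD301a), its close paralogue, was at 53.1, 61.0 and 57.2 CPM in the control libraries and 15.1, 19.9 and 18.9 CPM in the piceatannol libraries. It was 3.17-fold lower (log2 -1.67 ± 0.09). Clec10a over Mgl2 in FPKM, another of the 6 pairs, rose from 0.0440, 0.0439 and 0.0472 to 0.0777, 0.0899 and 0.0932. Of the 50-base words of its transcripts, Mgl2 shares 13.1% and Clec10a 9.02% with other genes, and each is the other's largest partner, so part of their reads could be split between them. The third member, Clec4f of Kupffer cells, had too few counts to test.

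On chromosome 8, the 4 tested Cd209 genes were all lower, with log2 fold changes from -5.51 to -2.65, and so was Clec4g beside them. Cd209a (mouse DC-SIGN), a receptor for high-mannose and fucosylated sugars found on monocyte-derived dendritic cells, was at 59.1, 60.7 and 49.2 CPM in the control libraries and 1.24, 1.30 and 1.19 CPM in the piceatannol libraries. It was 45.5-fold lower (log2 -5.51 ± 0.12, adjusted p = 6.21e-19 by edgeR's quasi-likelihood test, Benjamini-Hochberg adjusted), and fell in FPKM rank among members from 7 to 24. Cd209c (SIGNR2) was at 42.9, 37.2 and 45.4 CPM in the control libraries and 6.91, 6.45 and 6.66 CPM in the piceatannol libraries. It shares 15.7% of its 50-base words with other genes and was 6.27-fold lower (log2 -2.65 ± 0.09). Cd209d (SIGNR3), which binds mycobacterial sugars, was at 4.03, 4.67 and 3.55 CPM in control against 0.0712, 0.121 and 0.143 CPM with piceatannol. It dropped to 3, 4 and 7 counts, 35.3-fold lower (log2 -5.14 ± 0.29).

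The rest of the family was sparse and pointed the same way. Cd209e had 15, 26 and 26 counts in control and 1, 0 and 4 counts with piceatannol (log2 -3.36 ± 0.65, and -4.78 without piceatannol replicate 3, which held 4 of its 5 treated counts). Clec4g (LSECtin), a liver and lymph node endothelial lectin encoded beside the family, had 14, 19 and 24 counts in control and 1, 0 and 0 counts with piceatannol. Per depth, control was 45.4 times treated with a counting interval of 7.82 to 1823 (fitted log2 -5.10 ± 0.83, and -7.13 without piceatannol replicate 1). An antisense gene overlaps Clec4g, and whether the counting used strand is not stated in the labels. Cd209b summed to 25 counts in control and 1 with piceatannol and was not tested. Dendritic cell markers (9 genes, among them Itgax, Flt3 and Zbtb46) moved with this family, with a summed level of 1930 to 2150 CPM in control and 887 to 1100 CPM with piceatannol, none at 0 in all libraries and 7 of 8 tested lower. Most of that sum was Itgax, Ccr7 and Cd24a, of which Ccr7 did not pass, while Flt3 was at 2.73 and 0.577 CPM. The part of dendritic cell markers in the fall was not tested.

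Among the NKR-P1 (Klrb1) receptors and their Clr (Clec2) ligands, the receptors fell 18.9-fold and 42.5-fold where the ligands were at log2 changes of -0.28 and -0.09. Klrb1b, the inhibitory NKR-P1B that binds Clr-b, was at 31.1, 31.6 and 28.1 CPM in the control libraries and 1.24, 1.66 and 1.88 CPM in the piceatannol libraries. It was 18.9-fold lower (log2 -4.24 ± 0.13, adjusted p = 9.77e-17 by edgeR's quasi-likelihood test, Benjamini-Hochberg adjusted). It shares 27.2% of its 50-base words with other genes and shares exons with a readthrough gene that had 0 counts in all libraries. Klrb1f, the NKR-P1F receptor of Clr-g, was at 24.0, 22.4 and 20.9 CPM in the control libraries and 0.641, 0.514 and 0.430 CPM in the piceatannol libraries. Its treated libraries were all under 1 CPM, 42.5-fold lower (log2 -5.41 ± 0.15, adjusted p = 3.38e-17 by the same edgeR test).

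Clec2d (Clr-b), the ligand of Klrb1b, was at 39.4, 37.1 and 45.2 CPM in the control libraries and 32.9, 35.0 and 32.4 CPM in the piceatannol libraries. It was lower by 1.22-fold without overlap (log2 -0.28 ± 0.08). Clec2i (Clr-g), the ligand of Klrb1f, was at 32.7, 31.4 and 32.2 CPM in the control libraries and 28.9, 33.3 and 28.7 CPM in the piceatannol libraries. It overlapped between groups and did not pass (log2 -0.09 ± 0.08, adjusted p = 0.303 by edgeR's quasi-likelihood test). Cd69, the early activation antigen encoded beside Clec2d, was at 46.1, 41.4 and 44.8 CPM in the control libraries and 34.2, 29.9 and 30.8 CPM in the piceatannol libraries. It was 1.39-fold lower with no overlap (log2 -0.48 ± 0.07). Clec2l, known from neurons, was at 5.24, 6.56 and 4.54 CPM in control against 8.57, 14.9 and 9.93 CPM with piceatannol, so that all treated libraries were higher (log2 1.03 ± 0.21). Clec2f, annotated as a transcribed pseudogene, had 49, 14 and 37 counts in control and 7, 7 and 12 counts with piceatannol. This was a fall from a low level (log2 -1.58 ± 0.44). Of the Klrb1 receptors at low counts, Klrb1c (NK1.1) had 47, 22 and 29 counts in control and 4, 2 and 4 counts with piceatannol (log2 -2.92 ± 0.49) and Klrb1a had 22, 17 and 21 counts in control and 6, 3 and 6 counts with piceatannol (log2 -1.66 ± 0.46). Clec2g, with 9 counts in control and 3 treated, was not tested.

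The other killer receptors moved both ways. Klrk1 (NKG2D), the activating receptor for stress-induced ligands, was at 14.1, 13.6 and 12.5 CPM in the control libraries and 3.85, 5.33 and 2.87 CPM in the piceatannol libraries. It was 3.39-fold lower without overlap (log2 -1.76 ± 0.17, adjusted p = 8.15e-08 by edgeR's quasi-likelihood test, Benjamini-Hochberg adjusted). Klra2 (Ly49B), a Ly49 receptor of myeloid cells, was at 14.7, 10.02 and 14.7 CPM in the control libraries and 10.8, 8.78 and 9.24 CPM in the piceatannol libraries. Its groups overlapped in 1 control library, with a small fall (log2 -0.45 ± 0.14, adjusted p = 0.00730 by the same edgeR test). The last of the 6 ratios, Klra2 over Klrk1 in FPKM, was 3.94, 2.79 and 4.44 in control and 10.6, 6.26 and 12.3 with piceatannol.

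Klrg2 was at 5.85, 6.15 and 4.54 CPM in control against 9.07, 9.26 and 10.8 CPM with piceatannol, higher in all treated libraries (log2 0.83 ± 0.13). Klra17 (Ly49Q), an inhibitory Ly49 receptor of plasmacytoid dendritic cells and macrophages, was at 0.492, 0.205 and 0.440 CPM in control against 1.33, 1.45 and 1.51 CPM with piceatannol. It rose without overlap from under 1 CPM (log2 1.88 ± 0.31). Klre1, which pairs with Klri1 or Klri2, was at 0.133, 0.228 and 0.0338 CPM in control against 0.855, 1.42 and 1.13 CPM with piceatannol. It also rose (log2 3.16 ± 0.45, and 3.75 without control replicate 2), while its partner Klri2 had 19, 22 and 25 counts in control and 1, 1 and 0 counts with piceatannol. For Klri2 the control level per depth was 26.3 times the treated one with a counting interval of 6.99 to 221 (fitted log2 -4.50 ± 0.71, and -3.87 without piceatannol replicate 3). The other partner, Klri1, summed to 26 counts in control and 5 treated and was not tested.

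Klrd1 (CD94), the shared chain of the CD94/NKG2 receptors, had 41, 36 and 45 counts in control and 3, 6 and 3 counts with piceatannol (log2 -2.97 ± 0.45). Klra3 (Ly49C) had 12, 10 and 18 counts in control and 7, 7 and 21 counts with piceatannol and did not pass (log2 0.12 ± 0.46, adjusted p = 0.819 by edgeR's quasi-likelihood test). It shares 20.7% of its 50-base words with Klra9 and other genes, and its sign turned without piceatannol replicate 3 (-0.44). Of the NK cell markers, Ncr1, Gzma, Gzmb and Prf1 were at 0 in all 6 libraries. The 9 NK markers together reached 0.355 to 0.866 CPM in control and 0.881 to 1.07 CPM with piceatannol. Most of that sum was Itga2 (means of 0.36 and 0.50 CPM) and, with piceatannol, Il2rb (0.053 and 0.468 CPM). Nkg7 and Tbx21 were at 0.06 CPM in control. In CPM, which is not corrected for gene length, Klrb1b and Klrk1 were above the marker sum in every library. Klrb1f was above the sum in control and below it with piceatannol. Control means of Klrd1 (0.786), Klrb1c (0.627), Klri2 (0.428) and Klrb1a (0.386) lay within the control range of that sum. B cell markers summed to 2.21 to 3.82 CPM in control and 0.242 to 0.926 CPM with piceatannol, 5 of 5 tested lower. T cell markers summed to 3.94 to 4.56 and 3.11 to 3.39 CPM, 3 of 4 tested lower and 1 higher. The part of such cells was not tested.

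Of the Clec symbols outside these roles, Clec16a, an endosomal regulator of mitophagy, was at 57.2, 56.3 and 57.7 CPM in control against 48.2, 49.9 and 49.7 CPM with piceatannol. This was a small fall without overlap (log2 -0.21 ± 0.06). Clec11a, a secreted growth factor of bone and blood progenitors, was at 2.50, 2.67 and 2.37 CPM in control against 0.736, 0.696 and 0.860 CPM with piceatannol, lower in every treated library (log2 -1.70 ± 0.22). Clec1a, a receptor for fungal melanin, had 13, 9 and 9 counts in control and 20, 12 and 21 counts with piceatannol. Its call as higher (log2 1.08 ± 0.41, adjusted p = 0.0229 by edgeR's quasi-likelihood test) was lost without control replicate 2 or 3 or piceatannol replicate 1 or 3, with adjusted p from 0.0513 to 0.115 by the same edgeR test. It was lost as well with no low-count filter (edgeR adjusted p = 0.0669), by DESeq2 (adjusted p = 0.0788) and by limma on log2(FPKM + 1) (adjusted p = 0.118). Clec3b had 13 counts in control and 10 treated and was not tested.

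Along chromosome 6 the calls changed sign between neighbours. In the Dectin-2 and DCIR cluster (chr6:122921848-123289870, 9 members), 5 of 8 tested members were lower and 2 higher, and the 2 higher, Clec4d and Clec4e, lie side by side next to Clec4n, which was lower. In the NK gene complex (chr6:128609227-131247362, 42 members), 12 of 21 tested were lower and 6 higher. The shares lower and higher were 62.5% and 25% in the first cluster and 57.1% and 28.6% in the second. Over all tested genes they were 38.3% and 38.8%. Calls in either direction took 85.7% of the tested members of the NK gene complex and 77% of all genes. Clec12b, Clec1b, Clec9a and Clec1a, all called higher, are consecutive, followed by Clec7a, which did not pass, and by Klre1, which rose. This run is flanked by Clec12a and Klrd1, which were both lower. Its rises are of low genes. Clec12b had 3 counts over the control libraries, and Clec1b and Clec9a overlap in exons, so their calls are not independent. The call was lost in 5 of 18 alternative analyses for Clec9a and in 8 of 17 for Clec1a. The median log2 fold change was -0.996 in the first cluster and -0.45 in the second, beside 0.01 for all genes.

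**Figure D4:**
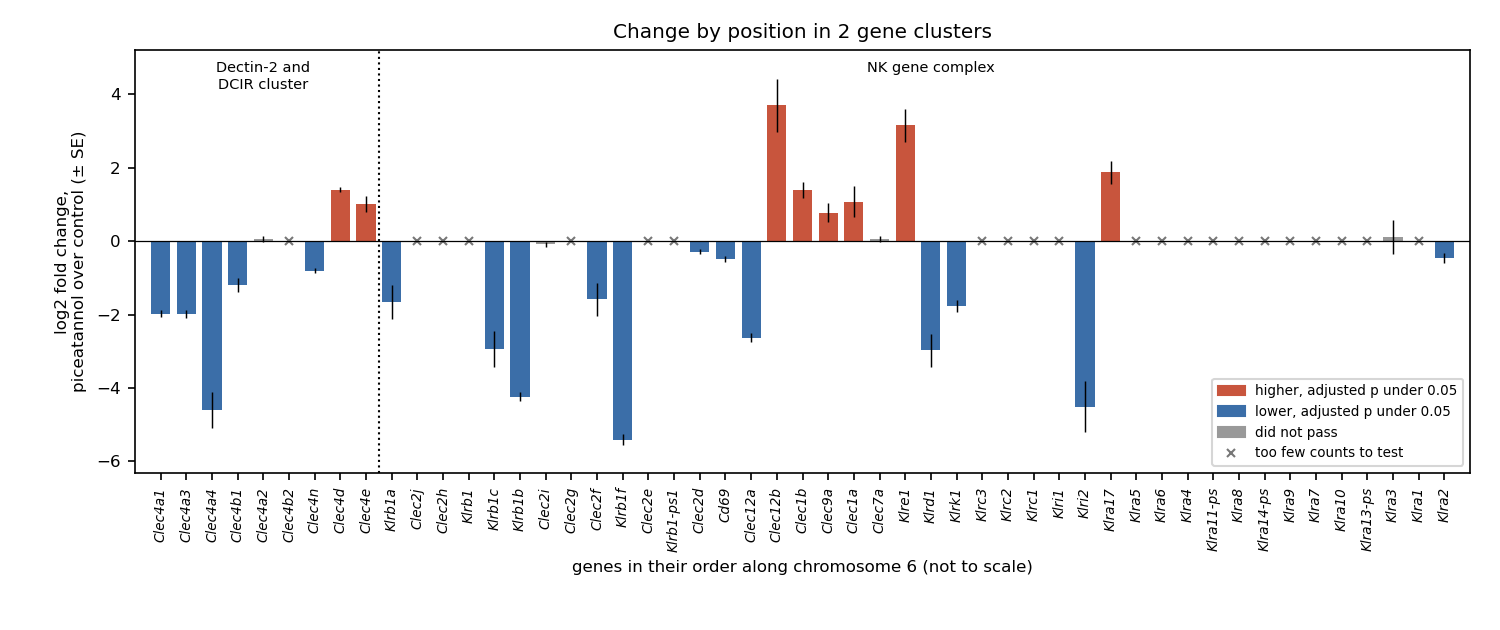
Fitted log2 fold change with its standard error for lectin receptor genes in their order along 2 clusters of chromosome 6 (not to scale), where crosses mark genes with too few counts to test. Clec12b, Clec1b, Clec9a, Clec1a and Klre1 are higher, with Clec7a (did not pass) among them, between Clec12a at -2.62 and Klrd1 at -2.97. The higher genes are low in counts, and the calls of Clec9a and Clec1a were lost in some alternative analyses.

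In the plot of changes by gene order, the long stretch of crosses at the right is the Ly49 region, where 11 of 14 Klra symbols were at 0. Neutrophil markers (8 genes) were at a summed 253 to 582 CPM in control and 34.2 to 42.3 CPM with piceatannol, none at 0 in all libraries and 7 of 7 tested lower. Most of that sum was S100a8 (means of 148.9 and 26.3 CPM) and S100a9 (230.7 and 9.67 CPM). Ly6g was at 0.084 and 0.030 CPM and was not tested, and Mpo was at 1.31 and 0.164 CPM. Clec5a and Clec12a, which granulocytes also express, fell alongside, while Clec4d and Clec4e, also known from neutrophils, rose. The part of these markers in those changes was not tested. Of 5 basophil and mast cell markers, 4 were lower, and the summed level of 33.1 to 38.1 CPM in control and 74.1 to 90.8 CPM with piceatannol was mostly Kit, which rose from 21.5 ± 2.72 to 74.4 ± 9.40 CPM (SD, n = 3).

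Adaptors and kinases that carry lectin receptor signals were read from a companion list of 22 genes, all tested, of which 16 were lower (72.7%) and 4 higher (18.2%) with a median log2 fold change of -0.80, beside 38.3%, 38.8% and 0.01 for all genes. Syk itself was at 443.8 ± 12.8 CPM (SD, n = 3) in control and 727.3 ± 19.7 CPM with piceatannol, a rise (log2 0.71 ± 0.06). Card9, the adaptor downstream of it, went the opposite way, from 187.8 ± 14.9 to 49.7 ± 4.16 CPM (log2 -1.92 ± 0.07). The partner chains were lower too, with Fcer1g at 590.8 ± 22.6 and 365.1 ± 7.17 CPM (log2 -0.69 ± 0.06) and Tyrobp at 887.3 ± 57.4 and 450.6 ± 11.01 CPM (log2 -0.98 ± 0.07). Hcst (DAP10), the partner of NKG2D, did not pass, at 6.90 ± 0.771 and 6.29 ± 0.860 CPM (log2 -0.14 ± 0.14, adjusted p = 0.368 by edgeR's quasi-likelihood test). The phosphatases that inhibitory lectins recruit fell, with Ptpn6 going from 411.4 ± 18.6 to 48.2 ± 3.94 CPM (log2 -3.09 ± 0.07) and Inpp5d (SHIP1) from 341.8 ± 5.31 to 142.5 ± 7.58 CPM (log2 -1.26 ± 0.06). Plcg2, the phospholipase downstream of Syk, fell (log2 -1.77 ± 0.06), as did Nfatc1 (log2 -1.23 ± 0.06), while the kinase Src rose (log2 1.28 ± 0.06).

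Ligands of NKG2D were few, with 5 of the list's symbols in the table and 4 tested. Ulbp1 was lower, from 63.4 ± 5.06 to 44.9 ± 4.04 CPM (log2 -0.50 ± 0.08), H60b was higher from a level under 1 CPM (log2 0.86 ± 0.36), and Raet1d and Raet1e did not pass. Among 17 tested genes with a C-type lectin domain outside the members, 10 were lower (58.8%) and 5 higher (29.4%) with a median log2 fold change of -0.67. All tested genes stood at 38.3%, 38.8% and 0.01. Asgr2, a galactose-binding chain of the asialoglycoprotein receptor and a relative of Mgl2, went from 1183 ± 36.0 to 57.1 ± 5.71 CPM (log2 -4.37 ± 0.08). Cd302 fell (log2 -1.71 ± 0.08), as did Cd248 (log2 -2.98 ± 0.20) and Cd93 (log2 -0.67 ± 0.07), while the hyaluronan receptor Layn rose from 5.12 ± 0.492 to 39.2 ± 2.99 CPM (log2 2.94 ± 0.10) and the oxidised LDL receptor Olr1 also rose (log2 1.23 ± 0.11).

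Receptors and factors known to regulate such lectins in macrophages were 5 lower (45.5%) and 4 higher (36.4%) of 11 tested, near the 38.3% and 38.8% of all genes, with a median log2 fold change of -0.04. Il4ra, the chain through which IL-4 raises Mrc1 and Mgl2, was at 481.6 ± 10.9 CPM in control and 968.2 ± 66.7 CPM with piceatannol (log2 1.007 ± 0.07). Its partner chains Il13ra1 (log2 -1.06 ± 0.07) and Il2rg (log2 -0.74 ± 0.06) were lower. Csf1r, the M-CSF receptor, went from 1679 ± 48.7 to 657.2 ± 30.2 CPM (log2 -1.35 ± 0.07), while Csf2rb, a chain of the GM-CSF receptor, went from 2626 ± 112.3 to 4114 ± 371 CPM (log2 0.65 ± 0.08). Stat5a, downstream of GM-CSF, fell (log2 -0.59 ± 0.07). The other 5 genes of the list were named after their values were seen: Stat5b (log2 0.49 ± 0.06) and Csf2rb2 (log2 0.48 ± 0.07) rose, the GM-CSF receptor chain Csf2ra fell (log2 -0.45 ± 0.06), and Stat6 (log2 -0.04 ± 0.06) and Irf4 (log2 0.02 ± 0.06) did not pass.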

How the data were processed

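RNA was sequenced from 3 control and 3 piceatannol libraries, grouped by the labels. The authors deposited unnormalised counts of reads for each gene symbol, and FPKM values per gene to 2 decimals. Per the submitters' processing notes, bcl2fastq, STAR, featureCounts and DESeq2 were used with mm10 or GRCm38. Versions, annotation, strand and multi-mapping settings were not given in the sources used here. Reads of near-identical genes may therefore be split or dropped.

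The deposited counts were fitted over the whole table with edgeR 4.0.16 in R 4.3.3 (filterByExpr with a minimum count of 10, TMM scaling, robust quasi-likelihood F test, two-sided, Benjamini-Hochberg over 15380 genes, threshold 0.05). The code was run on simulated counts with known changes in a small part of the genes and the same spread for every gene. Such a simulation cannot show how scaling and error rates behave where 77% of genes are called. CPM uses TMM-scaled totals. Standard errors are the log2 fold change over the root of F. Alternatives used DESeq2 1.42.0 and limma 3.58.1. FPKM served to compare levels between genes, for sums by role and ratios within a library, and in limma alternatives. Shared 50-base words and positions came from GENCODE M21 (GRCm38), and promoters from RefSeq.

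The labels number the replicates 1 to 3 in both groups. Deviations of same-numbered libraries from their group means correlated weakly across genes, at 0.115, 0.121 and 0.134. Each was above 0.1, so the numbers were treated as a possible pairing, which the labels do not state. The main fit, which gave the p-values and standard errors above, leaves this pairing out. A fit with the replicate number as a block was run as an alternative.

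Every tested member is named. Library values are given for members at a mean of at least 1 CPM in either group, and untested members are named from 10 counts. Companion lists are named by the 6 smallest p, with Syk, Card9, Fcer1g, Tyrobp and Hcst, and 5 further genes named after their values were seen. Members and lists were chosen with earlier results of these data known. Intervals on count ratios cover counting error only.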

Additional observations from a re-analysis of the deposited data

How the results depend on the processing

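Of the tested members, 28 were lower and 10 higher. Over the other scalings, filters, tests and thresholds tried, 20 to 31 were lower and 7 to 10 higher, and leaving out 1 library gave 28 to 30 lower and 8 to 10 higher. With the replicate block the counts were 28 lower and 10 higher, the same genes, and no call changed. Leaving out members that share over 20% of their 50-base words, an alternative chosen after seeing the data, gave 27 lower and 10 higher. Of 762 comparisons of a gene with an alternative, 735 kept direction and call, 20 lost the call, 2 gained it and 5 turned in sign. The sign turned only for genes that had not passed: the log2 fold change of Clec4a2 ranged from -0.022 to 0.12 and that of Clec7a from -0.017 to 0.16 when 1 library was left out. Clec7a was at -0.0013 without control replicate 3. Klra3 ranged from -0.44 to 0.38 without 1 library, and was at -0.0020 by limma on log2(FPKM + 0.1). The cause was not tested. Changes of low members are smaller on the log2(FPKM + pseudocount) scale by construction: with a pseudocount of 1, Cd209a was at -4.36, Cd209d at -2.28, Klrk1 at -0.89 and Clec11a at -0.56. The median over all genes was 0.06 with upper-quartile and -0.02 with total scaling. Members under 10 counts in a group limit precision, and 31 members could not be tested.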
